A study of Mus musculus with 4 samples.

Results

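The 10 genes described here, Prmt2, Mcm3ap, Pcnt, Dip2a, Sumo3, Ube2g2, Pwp2, Rrp1, Trappc10 and Pttg1ip, lie in the segment of mouse chromosome 10 that Dp(10)2Yey mice carry in 3 copies instead of 2. They were chosen by name, for known work in the nucleus, at the centrosome, in tagging proteins with SUMO or ubiquitin, in ribosome assembly and in membrane traffic, out of 31055 genes listed in each library. Single-cell RNA sequencing libraries (10x Genomics, 3′ end) were made from dissociated hippocampi of males aged 3 months, 2 of them Dp(10)2Yey and 2 wild-type (WT) littermates, all on a C57BL/6J background. The Dp(10)2Yey mice carry the duplication on 1 of their chromosomes 10, in every cell, and the WT mice carry none. There was 1 library per mouse, and the mice were processed on 2 consecutive days with 1 mouse of each genotype a day. The segment holds many other genes, so a difference between genotypes cannot be assigned to any of them.

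In Dp(10)2Yey, 3 copies against 2 give a ratio of 1.5 to WT, or 0.585 on the log2 scale, if the RNA of a gene follows its copy number. Genes of this kind work in nearly every cell. SUMO and ubiquitin are small proteins attached to others to change their fate, ribosomes are assembled in the nucleolus by a large set of factors, and the centrosome anchors microtubules. The orthologs of these genes lie on human chromosome 21, so they are present in an extra copy in Down syndrome.

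In the 6232 cells kept, each of the 10 genes was detected, with between 181 UMIs (unique molecular identifiers, each standing for 1 captured RNA molecule) for Pwp2 and 3067 for Rrp1. The libraries held 1008 cells and 2912570 UMIs in WT replicate 1, 1679 cells and 6705147 UMIs in WT replicate 2, 1348 cells and 4999685 UMIs in Dp(10)2Yey replicate 1, and 2197 cells and 8833367 UMIs in Dp(10)2Yey replicate 2. WT replicate 1 stood apart in depth, with a median of 2116.5 UMIs per cell against 3386 to 3689 in the other libraries. It also gave 58 of the 124 ependymal-like cells. Between 0 and 3 cell barcodes were shared by any pair of libraries. By their marker genes, clusters were like neurons (485 cells), immature neurons (185), oligodendrocyte precursors (461), oligodendrocytes (967), microglia (2010), astrocytes (888), endothelial cells (286), choroid plexus (125) and ependymal cells (124), and these names are used below for cells that are like them. A further 569 cells with microglial markers and a median of 802 UMIs were kept apart as low-UMI microglia, a cluster of 110 cells led by S100a9 had no name, and 22 cells like T cells or NK cells were too few to compare. In the cluster that holds 434 of the neurons the median share of mitochondrial UMIs was 27.7%, and Top2a, a gene of dividing cells, was among the leading genes of the immature neurons.

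Of the 10 genes, Dip2a was concentrated in oligodendrocytes by a wide margin. Trappc10 was also highest there but was found in other classes too, and the other genes had their highest level elsewhere, apart from Pwp2, which was too scarce to order. The 250 bases before the annotated start of Dip2a, Trappc10 and Rrp1 are shown here because Dip2a and Trappc10 stood out in the same class and Rrp1 was the most abundantly captured gene with a level spread over all classes. Sequences are from RefSeq on GRCm38.p6, minus strand, at chr10:76345292-76345541 for Dip2a, chr10:78244646-78244895 for Trappc10 and chr10:78413044-78413293 for Rrp1. Capitals mark the GC box GGGCGG, the CCAAT box (these letters) and the ETS-type motif CCGGAAGT, each on either strand.
Dip2a: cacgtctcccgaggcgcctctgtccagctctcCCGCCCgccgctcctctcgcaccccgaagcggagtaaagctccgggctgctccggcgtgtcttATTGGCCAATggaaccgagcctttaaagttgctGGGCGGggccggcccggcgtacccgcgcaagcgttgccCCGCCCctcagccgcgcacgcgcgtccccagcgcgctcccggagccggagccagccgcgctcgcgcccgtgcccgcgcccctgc
Trappc10: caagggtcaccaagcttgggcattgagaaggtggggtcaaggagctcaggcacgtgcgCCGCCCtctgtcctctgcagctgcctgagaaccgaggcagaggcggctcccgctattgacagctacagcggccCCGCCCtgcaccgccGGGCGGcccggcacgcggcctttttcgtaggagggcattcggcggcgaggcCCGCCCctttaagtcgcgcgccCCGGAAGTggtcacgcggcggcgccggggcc
Rrp1: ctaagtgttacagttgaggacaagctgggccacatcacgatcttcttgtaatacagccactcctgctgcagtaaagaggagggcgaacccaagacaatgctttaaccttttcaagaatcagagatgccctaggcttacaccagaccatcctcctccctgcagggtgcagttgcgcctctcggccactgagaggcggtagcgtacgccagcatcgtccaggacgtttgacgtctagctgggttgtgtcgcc

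The Dip2a sequence held 3 GC boxes and 2 CCAAT boxes in opposite orientation, that of Trappc10 held 4 GC boxes and 1 ETS-type motif, and that of Rrp1 held none of these letters. A window of 250 bases before to 50 after the start was found for 9 of the 10 genes (Ube2g2 was not among them). In the 250 bases before the start, 5 motifs were searched on both strands and the GC content was taken. The 9 genes had 11 windows, and a motif counted for a gene if any of its windows held it. The shares over all genes are per window. The ETS-type motif was found for 3 of the 9 genes (Mcm3ap, Pwp2 and Trappc10), against 2.88% of 32851 windows of the same length over all genes. GGGCGG was found for 6 of the 9 (32.7% of all windows), CCAAT for 2 (33.8%), the TATA box TATAAA for 1 (12.4%) and the CRE motif TGACGTCA for 0 (1.55%). The GC content of the windows of these genes lay between 54.4% and 77.6%, where the median over all windows was 52.4%. These matches are a description of the sequence alone.

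The level of each gene in each cell class was described in the WT libraries, in CPM (UMI counts scaled to a common library total) normalized over all class sums, for classes with at least 10 UMIs of the gene in WT. The classes come from clustering the same cells, so no test was made between classes. With 2 WT libraries, neighbouring classes in the order are called apart only where the values of both libraries did not overlap.

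Dip2a, a member of the disco-interacting protein 2 family, large proteins with adenylate-forming domains, was at 270.8 CPM in WT replicate 1 and 211 CPM in WT replicate 2 in oligodendrocytes. In the next class, oligodendrocyte precursors, it was at 23.08 and 23.84 CPM, a 10.27-fold lower mean. Both oligodendrocyte values lay far above those of all other classes. The astrocyte values overlapped those of both precursors and endothelial cells. Microglia were lowest, at 7.967 and 4.824 CPM, and the oligodendrocyte mean was 37.67-fold higher. Of all UMIs of Dip2a over the 4 libraries, 82.03% came from oligodendrocytes, which made up 967 of the 6232 cells. The mean of Dip2a in WT microglia was 2.65% of that in oligodendrocytes, where the myelin genes Mal, Mog and Mbp were at 0.223%, 0.0998% and 2.85%. How much of the low level of Dip2a outside oligodendrocytes came from free RNA was not tested. The 3′ end of Dip2a (chromosome 10, 76259429 to 76345291, minus strand, GRCm38) overlaps that of S100b on the opposite strand, and S100b had another order, with 1050 CPM in oligodendrocyte precursors, 819.7 in ependymal cells, 580.8 in astrocytes and 277.2 in oligodendrocytes. Dip2a was also the only 1 of the 10 genes among the 2000 genes used to integrate the libraries, and it was highest in oligodendrocytes too when the genes of the segment were left out of that step.

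Trappc10 (78186725 to 78244641, minus strand), a subunit of the TRAPPII complex that tethers vesicles at the Golgi, was at 132.5 and 139.8 CPM in WT oligodendrocytes and at 58.3 and 54.27 CPM in astrocytes, the next class. The oligodendrocyte mean was 2.418-fold higher than that of astrocytes and 4.91-fold higher than that of immature neurons, the lowest class at 36.75 and 18.69 CPM. Oligodendrocytes lay above all 7 other classes in both WT libraries, and no other neighbours in the order were apart. In microglia, Trappc10 stood at 38% of its oligodendrocyte level, unlike Dip2a at 2.65%.

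Pttg1ip (77581720 to 77598732, plus strand), whose product binds securin and takes it into the nucleus, was at its highest levels in astrocytes, at 162.4 and 187.7 CPM, and in endothelial cells, at 145.3 and 191.4 CPM. These classes overlapped each other, changed order under total-count scaling, and lay above microglia at 122.9 and 122.4 CPM. Neurons were lowest, at 20.36 and 15.31 CPM, a 9.821-fold lower mean than in astrocytes. Of the 8 neighbouring pairs of classes in its order, 6 were apart, more than for any other of the 10 genes.

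Rrp1 (78400384 to 78413043, minus strand), a nucleolar protein needed to make the large ribosomal subunit, was found in all 10 named classes at levels within 2.448-fold. It was highest in neurons at 142.5 and 168.4 CPM and lowest in astrocytes at 74.96 and 52.01 CPM. Neurons lay above all 9 other classes in both WT libraries, and most neighbours in the order overlapped. Pwp2 (78170909 to 78185149, minus strand), a part of the small-subunit processome that matures the RNA of the small ribosomal subunit, reached 10 WT UMIs only in oligodendrocytes, at 9.742 and 7.119 CPM, and in microglia, at 5.691 and 7.838 CPM. These overlapped, and no order can be given for Pwp2.

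Sumo3 (77606097 to 77618331, plus strand), a small ubiquitin-like modifier, was highest in the choroid plexus at 109.6 and 121.8 CPM and next in endothelial cells at 83.04 and 90.8 CPM. It was lowest in oligodendrocyte precursors at 40.39 and 43.47 CPM, a 2.759-fold lower mean than in the choroid plexus, and from microglia down no neighbours were apart. Ube2g2 (77622275 to 77645993, plus strand), the enzyme that passes ubiquitin to proteins discarded from the endoplasmic reticulum, was at 36.75 and 26.16 CPM in immature neurons and at 26.18 and 34.97 CPM in microglia, which overlapped. In oligodendrocytes it was at 7.794 and 11 CPM, a 3.348-fold lower mean than in immature neurons. Sumo3 and Ube2g2 thus both had a higher mean in microglia than in oligodendrocytes, the opposite of Dip2a and Trappc10.

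Prmt2 (76207222 to 76237865, minus strand), an arginine methyltransferase that assists nuclear receptors, was at 43.28 and 65.9 CPM in oligodendrocyte precursors and at 47.5 and 52.73 CPM in neurons, which overlapped. Microglia were lowest at 13.66 and 20.5 CPM, a 3.196-fold lower mean than in precursors. Mcm3ap (76468927 to 76515857, plus strand), the scaffold of the TREX-2 complex that takes messenger RNA to the nuclear pore, ranged over 1.746-fold, from 26.38 CPM in precursors to 15.11 CPM in astrocytes. Pcnt (76351263 to 76442786, minus strand), the pericentrin scaffold of the centrosome, ranged from 26.1 and 48.2 CPM in ependymal cells, which carry many cilia, to 5.77 and 25.24 CPM in precursors, a 2.397-fold difference of means. The ependymal and microglial values of Pcnt overlapped, and the ependymal value rests on 12 WT UMIs.

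**Figure D1:**
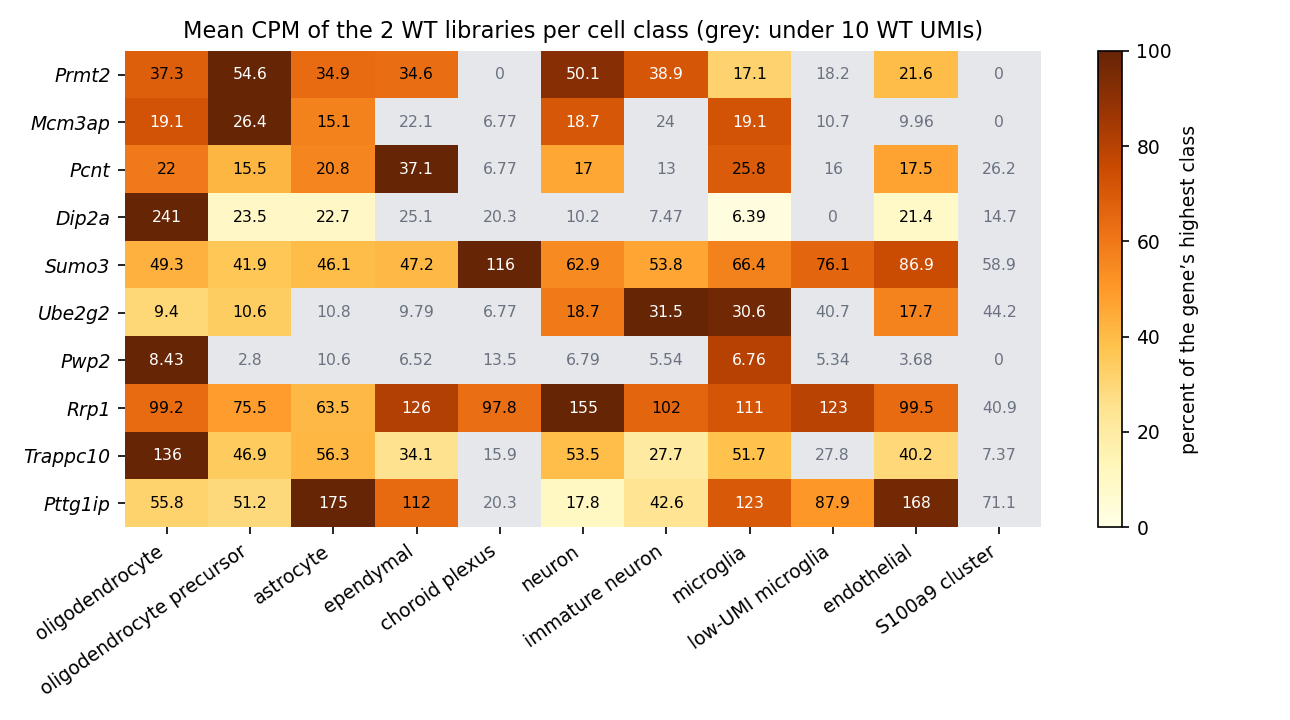
Mean level of each gene (rows) in each cell class (columns) over the 2 WT libraries, in CPM normalized over all class sums; color gives the level as a percent of the gene's highest class, and grey marks classes with under 10 WT UMIs of the gene. Dip2a is concentrated in oligodendrocytes (240.9 CPM against 23.46 in precursors), and Trappc10 is highest there too at 136.1 CPM but less concentrated.

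For the 3 genes with the most UMIs, the genes outside the segment with the most similar pattern were found over 40 sums (10 named classes in 4 libraries) by Pearson correlation of log2(CPM + 10) among 11859 genes. For Pttg1ip these were Tor1aip1 (r = 0.835), Gnai2 (0.813) and Laptm4a (0.809), and for Trappc10 they were Ankib1 (0.814), Dcaf17 (0.809) and Pde4b (0.808). Rrp1 had no gene as close, with 0.569 for Rpl9-ps6, 0.557 for 1110002L01Rik and 0.515 for Ahsa1. The sums of a library share its depth and its mouse, so these values are a description.

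The main comparison asked whether each gene was higher in Dp(10)2Yey hippocampus and by how much against the copy ratio of 1.5. With the cells of each library summed, all 10 genes were higher in both Dp(10)2Yey libraries than in both WT libraries, with ratios from 1.393 for Mcm3ap to 1.807 for Ube2g2. The median log2 fold change of the 10 genes was 0.657, a ratio of 1.576, where the median over all 13874 genes tested was 0.004. Such a separation of the 4 libraries upward was seen for 13.7% of all genes tested, and 51% of all genes had a log2 fold change above 0. The same duplication is present in all cells, so the mean of a class-mixed sum also moves with the share of each class, and fewer cells of a class and less RNA per cell cannot be told apart in it.

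Among the nuclear genes, Prmt2 stood at 27.45 and 30.78 CPM in WT and 49.16 and 43.89 CPM in Dp(10)2Yey, Mcm3ap at 16.81 and 18.53 against 25.81 and 23.95, and the centrosomal Pcnt at 16.47 and 22.56 against 29.9 and 29.19. In each case the lower Dp(10)2Yey value lay above the higher WT value. The ratio was 1.58 for Prmt2 (95% interval 1.238 to 2.017, unadjusted p = 0.00238 from edgeR's quasi-likelihood test). It was 1.393 for Mcm3ap (1.053 to 1.843, unadjusted p = 0.0257) and 1.475 for Pcnt (1.09 to 1.997, unadjusted p = 0.0178). None of these ratios passed the same test against 1.5 (unadjusted p between 0.561 and 0.903).

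Dip2a was at 57.99 and 58.28 CPM in WT and at 108.6 and 75.31 CPM in Dp(10)2Yey, the widest gap between replicates of a genotype among the 10 genes. Its ratio was 1.573 (1.164 to 2.124, unadjusted p = 0.00815), and without Dp(10)2Yey replicate 1 its log2 fold change was 0.372, with an interval that reached below a ratio of 1.

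Of the protein-tagging genes, Sumo3 was at 50.1 and 58.72 CPM in WT and 80.9 and 90.12 CPM in Dp(10)2Yey, a ratio of 1.563 (1.232 to 1.984, unadjusted p = 0.00237). Ube2g2 was at 17.16 and 18.83 CPM in WT and 33.8 and 31.86 CPM in Dp(10)2Yey, the highest ratio of the 10 genes at 1.807 (1.389 to 2.35, unadjusted p = 0.000766, adjusted p = 0.966). The ratio of Ube2g2 did not pass edgeR's test against 1.5 (unadjusted p = 0.143). The annotated read-through transcript Gm49325, listed at 0 UMIs, shares 346 of 2630 exon bases of Sumo3 and 166 of 2031 of Ube2g2, and none of these lie in their last exons, near the end that the assay reads.

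Rrp1, the large-subunit ribosome factor, was at 94.71 and 96.83 CPM in WT and 157.3 and 153.2 CPM in Dp(10)2Yey, a ratio of 1.62 (1.323 to 1.983, unadjusted p = 0.00052, adjusted p = 0.907). The small-subunit factor Pwp2 was at 6.177 and 6.126 CPM in WT and 8.807 and 8.8 CPM in Dp(10)2Yey, a ratio of 1.432. Its interval of 0.9058 to 2.265 held both 1 and 1.5 (unadjusted p = 0.109). The interval from counting error alone was 1.045 to 1.997, and the wider one also holds the spread between libraries that edgeR fitted.

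Of the traffic genes, Trappc10 was at 56.62 and 64.85 CPM in WT and 112.7 and 90.79 CPM in Dp(10)2Yey, a ratio of 1.661 (1.285 to 2.147, unadjusted p = 0.00172). Pttg1ip was at 87.5 and 82.03 CPM in WT and 132.5 and 143.9 CPM in Dp(10)2Yey, a ratio of 1.635 (1.323 to 2.022, unadjusted p = 0.000626, adjusted p = 0.963). Neither group of values overlapped the other for these genes.

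**Figure D2:**
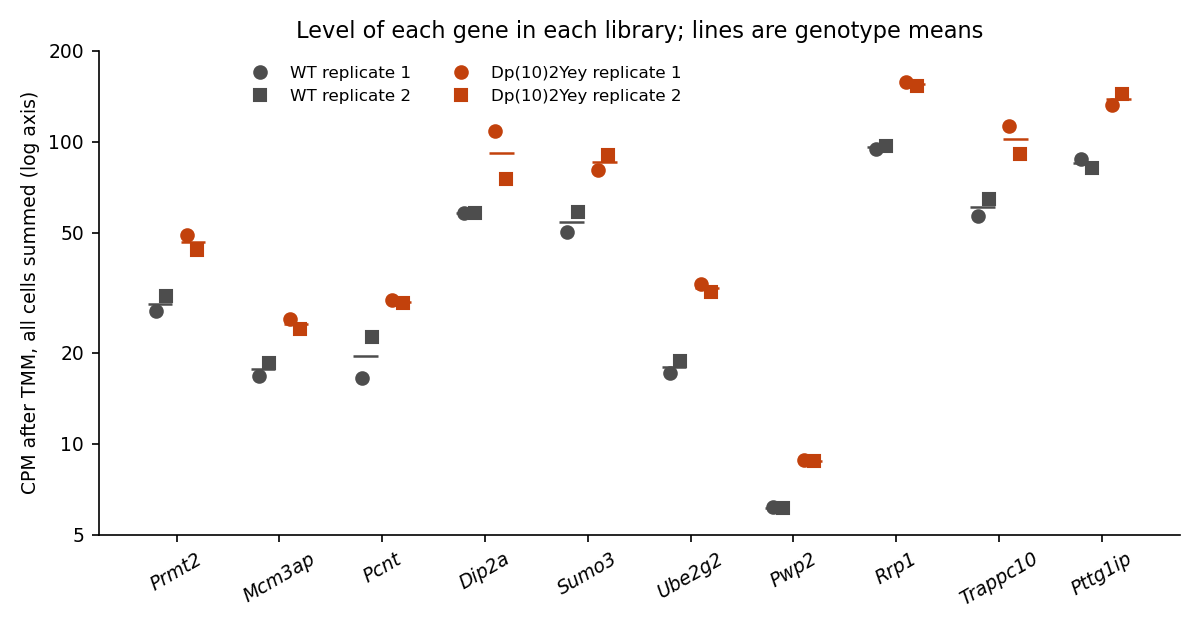
Level of each of the 10 genes in each library with all cells summed, in CPM after TMM normalization on a log axis; circles are replicate 1, squares replicate 2, grey WT, orange Dp(10)2Yey, and lines are genotype means. For each gene both Dp(10)2Yey points lie above both WT points, with the smallest relative gaps for Dip2a (75.31 against 58.28 CPM), Mcm3ap and Pcnt.

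In this comparison 9 of the 10 genes had an unadjusted p under 0.05, all higher in Dp(10)2Yey, against 1.17% of all genes tested. After Benjamini-Hochberg adjustment over the 13874 genes, 0 of the 10 were past the threshold of 0.01, as were 0% of all genes (354 genes had an unadjusted p under 0.05). DESeq2 on the same sums called 0 of the 10, and 2 of all 17532 genes. It gave 7 of the 10 an unadjusted p under 0.05, and 153 of all 17532 genes. The 95% interval contained 1.5 for 10 of 10 genes and contained 1 for Pwp2 alone. An interval on 2 mice per genotype was wide. The p-values reflect counting error and a spread between these mice alone, which was fitted with the help of other genes. Leaving out 1 library also brought the interval of Mcm3ap to 1 (without WT replicate 1, WT replicate 2 or Dp(10)2Yey replicate 1), and that of Pcnt (without WT replicate 1).

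When the share of each cell class was held equal in all libraries, the 10 genes again lay higher in both Dp(10)2Yey libraries. The share of all genes that separated in this way is not given here, so nothing is read from this count. The ratios were then 1.606 for Prmt2, 1.474 for Mcm3ap, 1.478 for Pcnt, 1.549 for Dip2a, 1.63 for Sumo3, 1.929 for Ube2g2, 1.34 for Pwp2, 1.671 for Rrp1, 1.701 for Trappc10 and 1.669 for Pttg1ip, where the median over all genes was 1.027. Dip2a, 82.03% of whose UMIs came from oligodendrocytes, moved from 1.573 to 1.549.

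Relatives of these genes elsewhere in the genome, present in 2 copies in all mice, were measured beside them. Sumo2, which like Sumo3 is conjugated to proteins, had a ratio of 1.014 (0.8257 to 1.245). Ube2g1, the closest relative of Ube2g2, was at 0.978 (0.7833 to 1.221), and Dip2b and Dip2c were at 1.197 (0.977 to 1.467) and 1.055 (0.8035 to 1.386). The relatives with the highest and lowest ratios were Rrp1b, a relative of Rrp1, at 1.34 (0.9483 to 1.892) and Prmt3, a relative of Prmt2, at 0.7461 (0.5133 to 1.085). Of the 12 relatives tested, 8 were above 0 and 4 below on the log2 scale, 0 had an unadjusted p under 0.05 in edgeR's test, and their median was 0.041. All 12 intervals held 1, and 3 of them also held 1.5.

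**Figure D3:**
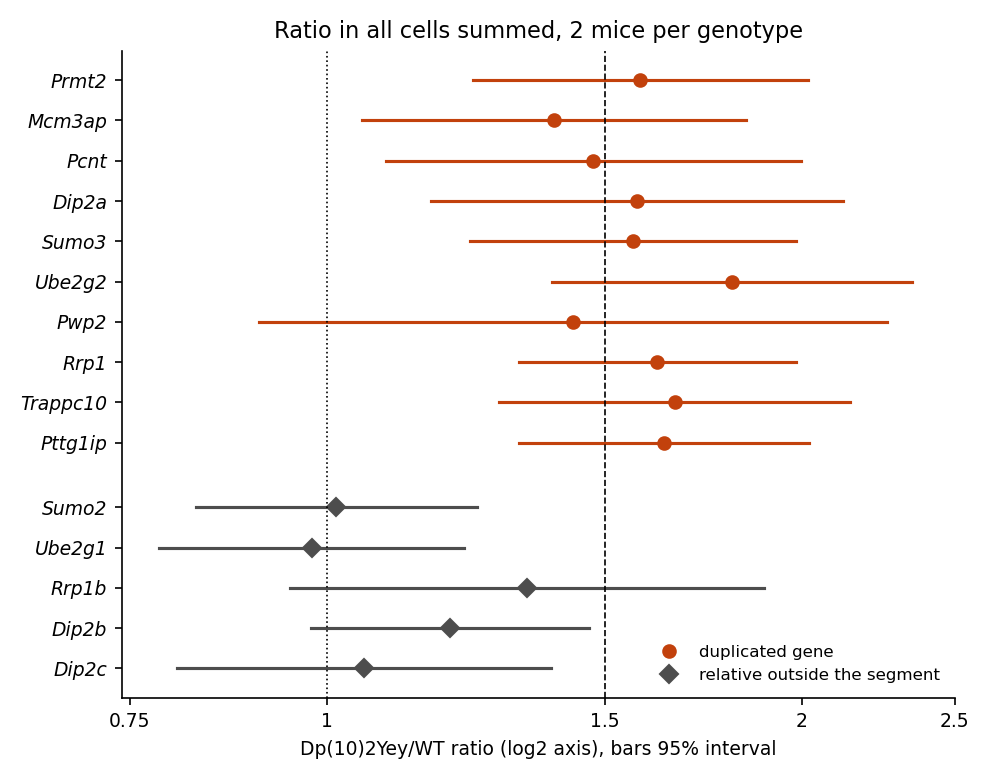
Ratio of Dp(10)2Yey to WT with all cells summed (log2 axis) for the 10 duplicated genes (orange circles) and 5 relatives outside the segment (grey diamonds), with 95% intervals; the dotted line is 1 and the dashed line 1.5. All 10 intervals of the duplicated genes cross 1.5 and only that of Pwp2 crosses 1, where all 5 intervals of the relatives cross 1 and that of Rrp1b also crosses 1.5.

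Genes that work with these 10 were also measured, and 80 of 85 listed were tested. Of these, 46 were above 0 and 34 below, 0 had an unadjusted p under 0.05 in either direction in edgeR's test, and their median log2 fold change was 0.029. By group, 23 SUMO and ubiquitin partners ranged from -0.171 for Syvn1, a ubiquitin ligase of the endoplasmic reticulum, to 0.318 for Senp1, a SUMO protease. The 24 ribosome assembly partners ranged from -0.248 for Utp4 to 0.202 for Noc2l, and the 17 centrosome and TREX-2 partners from -0.69 for Tubgcp6, a part of the microtubule-nucleating ring, to 0.166 for Pcid2. The 16 TRAPP partners had a median of -0.027 and ranged from -0.305 for Trappc12 to 0.156 for Trappc2l. The medians of the other groups were 0.03 for SUMO and ubiquitin, 0.03 for centrosome and TREX-2, and 0.044 for ribosome assembly.

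Along the chromosome, Prmt2 and Rrp1 lie near the ends of the segment, 2.21 Mb apart. The 21 other genes of the segment that could be tested, of 26 listed, had a median of 0.557, a ratio of 1.471, with 19 above 0 and 14 with an unadjusted p under 0.05. They ranged from -2.021 for Col6a1, a collagen with 143 UMIs of which 105 were in WT replicate 2, to 0.97 for 1810043G02Rik. Within 3 Mb on either side, 115 genes had a median of 0.057, a ratio of 1.04, with 77 above 0. Of these, 0 had an unadjusted p under 0.05 upward and 1 did downward, Gm16105 (log2 fold change -0.7, unadjusted p = 0.0299).

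**Figure D4:**
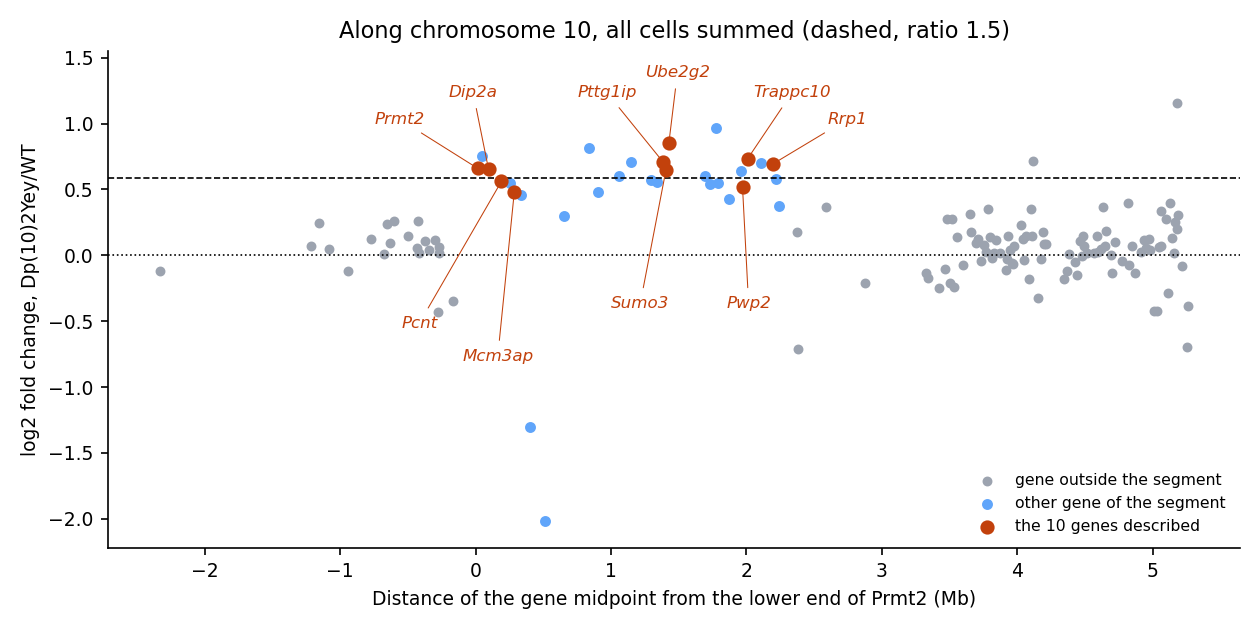
Log2 fold change of Dp(10)2Yey over WT with all cells summed against the distance of each gene's midpoint from the lower end of Prmt2, in Mb; orange points are the 10 genes described, blue points other genes of the segment and grey points genes outside it, and the dashed line is a ratio of 1.5. The 10 genes lie between 0.478 and 0.853, while the genes outside the segment scatter about a median of 0.057.

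The comparison was then made within each cell class, which takes away the differences in class shares. Of the 110 pairs of a gene and a class (10 genes in 11 classes), 56 had enough UMIs to be tested in edgeR and 54 did not, 5 of them without a UMI in either WT library. Among the 56 tested pairs, 55 had a log2 fold change above 0, against 50.2% of all tested genes over these classes, with a median of 0.638 or a ratio of 1.556. The filter on low counts needs enough UMIs in at least 2 libraries, so a scarce gene could pass through the higher genotype alone. In 8 of the 56 pairs each WT library held under 10 UMIs of the gene. These were Dip2a in microglia and astrocytes, Pttg1ip in low-UMI microglia and neurons, Ube2g2 in precursors, Sumo3 in the choroid plexus and ependymal cells, and Rrp1 in the choroid plexus. Prmt2 in immature neurons, with 5 and 11 UMIs in the WT libraries, could pass in the same way. With no such filter, 98 of 110 pairs were above 0, against 53.8% of all genes. Of the 56 pairs, 28 had an unadjusted p under 0.05, all upward, against 1.84% of all tested genes. With no filter this count was 32 of 110, against 1.75% of all genes. With DESeq2 it was 14 of 110, for which no share of all genes is given here, so nothing is read from that count. By edgeR with the filter and by DESeq2, 0 pairs had an adjusted p under 0.01, which 0.027% of all genes reached in edgeR with the filter. Without the filter edgeR gave 2 such pairs (Rrp1 in oligodendrocytes and Sumo3 in immature neurons), for which no share of all genes is given here. The 95% interval contained 1.5 in 53 of 56 pairs, contained 1 in 28 and contained both in 27, so in those 27 the data could not tell a ratio of 1 from 1.5.

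Microglia and oligodendrocytes, the classes with the most UMIs, allowed all 10 genes to be tested. In microglia, 9 of 10 genes lay higher in both Dp(10)2Yey libraries (14.7% of all genes there), the exception being Pwp2, with a median ratio of 1.556. In oligodendrocytes this held for 8 of 10 (14.2% of all genes), without Sumo3 and Pwp2, with a median ratio of 1.508. In the other classes the filter left out some of the 10 genes, so all 10 were counted there with no filter, on the same CPM scale and against all genes with a UMI. The counts were 8 of 10 in neurons (15.3% of all genes), 7 in oligodendrocyte precursors (14%), 6 in endothelial cells (13.3%), 5 in astrocytes (15%) and 4 in immature neurons (15%). They were 4 in ependymal cells (15.2%), 4 in low-UMI microglia (15%), 2 in the choroid plexus (10.5%) and 2 in the cluster led by S100a9 (13.8%). In low-UMI microglia 2 genes, Prmt2 and Ube2g2, were lower in both Dp(10)2Yey libraries, as was Dip2a in ependymal cells. Many of these values rest on under 10 UMIs per library. With the scaling taken over all genes with a UMI, the count was 9 in neurons (15.8% of all genes) and 7 in immature neurons (17%). It was then 4 in the choroid plexus (12.7%) and 3 in the cluster led by S100a9 (14.8%). Over the genes that passed the filter, the median ratios were 1.545 in astrocytes, 1.524 in precursors, 1.802 in neurons, 1.492 in endothelial cells, 2.012 in immature neurons and 1.905 in ependymal cells. Those of the small classes rest on 2 to 5 genes and moved with the processing. Those of astrocytes, precursors, neurons, immature neurons and ependymal cells each include a pair that could pass the filter through Dp(10)2Yey alone. Nothing is read from how far these medians lie above 1.5. With no filter, the median log2 fold change was 0.814 in immature neurons against 1.008, and 0.614 in ependymal cells against 0.93. It was 0.507 in astrocytes against 0.627, 0.715 in precursors against 0.608 and 0.862 in neurons against 0.85. With the filter, the median log2 fold change in immature neurons was 1.008, but 0.551 without WT replicate 2 and 1.856 after thinning each cell to 2000 UMIs. In the larger class of astrocytes it was 0.627, but 0.393 without Dp(10)2Yey replicate 2. In neurons it was 0.85, but 0.58 without Dp(10)2Yey replicate 1 and 1.275 without Dp(10)2Yey replicate 2, and in endothelial cells it was 0.577, but 0.294 after thinning. The make-up of the neurons also differed between libraries. At a resolution of 0.5, a cluster of 315 cells led by Camk2a had a median of 32.62% mitochondrial UMIs, against 6.96% in a neuron cluster of 119. The first held 132 and 59 cells of Dp(10)2Yey replicates 1 and 2, and 32 and 92 of WT. The second held 11 and 42, and 16 and 50. Whether this moved the ratios in neurons was not tested. No gene could be tested in the cluster led by S100a9.

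Ube2g2 in microglia had the smallest p of the 56 pairs. Normalized within microglia, it was at 20.4 and 25.95 CPM in WT and at 54.11 and 50.11 CPM in Dp(10)2Yey, and both Dp(10)2Yey values were well above both WT values. The ratio was 2.172 (1.601 to 2.947, unadjusted p = 2.63e-05, adjusted p = 0.0399), and its interval lay above 1.5 (unadjusted p = 0.0207 against 1.5). Elsewhere Ube2g2 was tested only in oligodendrocytes, at a ratio of 1.441 (0.7616 to 2.727), and in precursors, at 1.709 (0.8141 to 3.589). Both intervals held 1 as well as 1.5. The pair in precursors, on 3 and 9 UMIs in WT and 17 and 14 in Dp(10)2Yey, could pass the filter through Dp(10)2Yey alone.

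Sumo3 had the widest range of ratios over classes, from 1.078 to 3.417. In immature neurons it was at 79.7 and 80.97 CPM in WT and at 338.6 and 225.1 CPM in Dp(10)2Yey, a ratio of 3.417 (1.982 to 5.889, unadjusted p = 0.000162, adjusted p = 0.138) that lay above 1.5 (unadjusted p = 0.00559 against 1.5). These values rest on 7 and 15 UMIs in WT and 50 and 73 in Dp(10)2Yey. In oligodendrocytes it was at 42.46 and 50.03 CPM in WT and at 48.97 and 52.89 CPM in Dp(10)2Yey, which overlapped. There the ratio was 1.078 (0.7758 to 1.497), just below 1.5 (unadjusted p = 0.0492 against 1.5). In microglia the ratio was 1.559 (1.186 to 2.051), in neurons 1.981 (1.16 to 3.381) and in endothelial cells 1.587 (1.03 to 2.443). In ependymal cells it was 2.262 (1.21 to 4.228) on 8 and 7 UMIs in WT and 15 and 42 in Dp(10)2Yey, a pair that could pass the filter through Dp(10)2Yey alone, so nothing is read from this interval either. Its intervals in precursors (0.9892 to 2.249), astrocytes (0.7791 to 1.979) and the choroid plexus (0.7563 to 3.166) held both 1 and 1.5.

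Rrp1 was the only 1 of the genes that could be tested in all 10 named classes, with ratios from 1.401 in neurons to 2.107 in immature neurons, all with intervals that held 1.5. Rrp1 had intervals that held 1 as well in neurons, endothelial cells, low-UMI microglia and the choroid plexus. In oligodendrocytes it was at 79.37 and 106.7 CPM in WT and 164 and 179.2 CPM in Dp(10)2Yey, a ratio of 1.78 (1.372 to 2.309, unadjusted p = 0.000274, adjusted p = 0.248). In precursors it was at 116.1 and 91.59 CPM against 201.5 and 186.7 CPM, a ratio of 1.921 (1.386 to 2.663), and in astrocytes at 77.81 and 50.61 against 134 and 117.8 CPM, a ratio of 2.057 (1.384 to 3.058). Microglia gave 85.15 and 84.12 CPM against 121.2 and 118.7 CPM, a ratio of 1.417 (1.138 to 1.764). In 9 of the 10 classes the Dp(10)2Yey values were both above the WT values, the choroid plexus, with 7 and 5 WT UMIs, being the exception. Pwp2 overlapped between genotypes in both classes where it was tested, with ratios of 1.295 (0.6641 to 2.527) in microglia and 1.109 (0.5091 to 2.415) in oligodendrocytes.

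Trappc10 was higher in Dp(10)2Yey in its main class, oligodendrocytes, at 125.5 and 130.2 CPM in WT and 217.1 and 207.4 CPM in Dp(10)2Yey, a ratio of 1.652 (1.319 to 2.069, unadjusted p = 0.00026, adjusted p = 0.248). In microglia it was at 36.37 and 42.06 CPM against 77.64 and 69.16 CPM, a ratio of 1.829 (1.409 to 2.374, unadjusted p = 8.28e-05, adjusted p = 0.0941). In astrocytes it was at 60.52 and 52.81 CPM in WT and 63.91 and 49.78 CPM in Dp(10)2Yey, which overlapped. The astrocyte ratio of 0.9994 was the only 1 of the 56 not above 1, and its interval of 0.6307 to 1.584 still held 1.5 (unadjusted p = 0.0866 against 1.5). In precursors the ratio was 1.524 (1.037 to 2.242), while the intervals in neurons (0.9543 to 3.403) and endothelial cells (0.5644 to 2.076) held both 1 and 1.5.

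Pttg1ip was tested in 9 classes, in 2 of which, neurons and low-UMI microglia, each WT library held under 10 of its UMIs. In astrocytes, which shared its highest levels with endothelial cells, it was at 168.6 and 182.6 CPM in WT and 235 and 306 CPM in Dp(10)2Yey, a ratio of 1.545 (1.145 to 2.083, unadjusted p = 0.00492). In endothelial cells it was at 173.4 and 221.1 CPM against 305.1 and 370.6 CPM, a ratio of 1.703 (1.145 to 2.532). Microglia and oligodendrocytes gave ratios of 1.553 (1.253 to 1.926) and 1.875 (1.38 to 2.547). In neurons the ratio was 2.817 (1.221 to 6.496) on 3 and 9 UMIs in WT and 11 and 24 UMIs in Dp(10)2Yey. At these counts the pair could pass the filter through Dp(10)2Yey alone, so nothing is read from this interval lying above 1. In immature neurons the values overlapped, with a ratio of 1.176 (0.5854 to 2.363).

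Dip2a in oligodendrocytes was at 256.6 and 196.5 CPM in WT and at 363.2 and 315.6 CPM in Dp(10)2Yey, a ratio of 1.529 (1.201 to 1.946, unadjusted p = 0.00192, adjusted p = 0.787). Both Dp(10)2Yey values lay above both WT values, and the class that holds most of its RNA had an interval that held 1.5 (unadjusted p = 0.868 against 1.5). Outside it, Dip2a was tested in precursors at 1.764 (1.055 to 2.951), and in astrocytes at 1.901 (1.021 to 3.54) and microglia at 1.567 (0.7902 to 3.109), both on under 10 UMIs in each WT library, so nothing is read from the astrocyte interval lying above 1. All 4 intervals held 1.5.

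Prmt2 had ratios from 1.33 in precursors to 1.92 in immature neurons over 6 classes, and all 6 intervals held 1.5. Prmt2 had intervals that held 1 as well in precursors, oligodendrocytes and astrocytes. In immature neurons it had 5 and 11 UMIs in WT and 19 and 33 in Dp(10)2Yey. At these counts it could pass the filter through Dp(10)2Yey alone, so nothing is read from its interval there lying above 1. In microglia it was at 10.64 and 15.21 CPM in WT and 25.29 and 24.03 CPM in Dp(10)2Yey, a ratio of 1.818 (1.206 to 2.74, unadjusted p = 0.00627). In precursors, its highest class, the values of 60.04 and 89.68 CPM in WT and 123.5 and 88.06 CPM in Dp(10)2Yey overlapped. Pcnt was tested in 4 classes, with ratios from 1.208 in astrocytes to 1.486 in oligodendrocytes, and each interval held both 1 and 1.5. Mcm3ap was tested in 3 classes, at 1.459 (0.9695 to 2.197) in microglia, 1.592 (1.025 to 2.472) in oligodendrocytes and 1.061 (0.5954 to 1.891) in precursors.

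**Figure D5:**
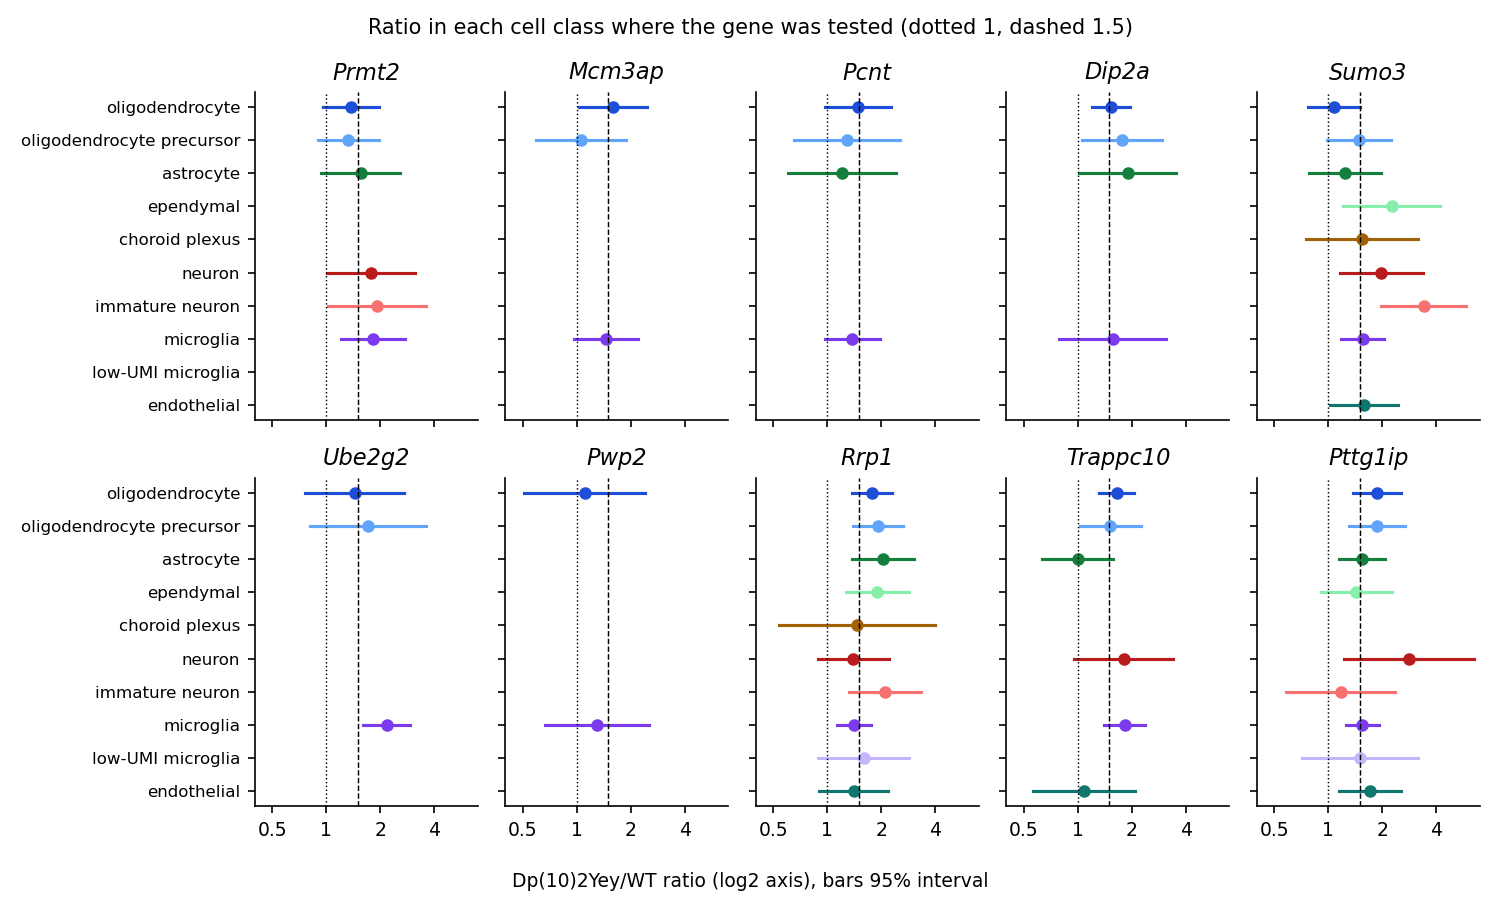
Ratio of Dp(10)2Yey to WT (log2 axis) for each gene (panels) in each cell class where it could be tested (rows), with 95% intervals; the dotted line is 1 and the dashed line 1.5. Of the 56 intervals, 53 cross 1.5, those of Ube2g2 in microglia and Sumo3 in immature neurons lie above it and that of Sumo3 in oligodendrocytes lies below it.

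Whether a ratio differed between classes was tested directly, as the interaction of genotype and class in 1 fit with the library as a block. Of the 10 genes, 9 could be tested, and 0 were past an adjusted p of 0.01 in edgeR, where 0.436% of all 11228 genes were. Sumo3 alone fell under 0.05 before adjustment (unadjusted p = 0.0425, adjusted p = 1), against 3.81% of all genes, and without the filter on low counts its p was 0.0572. The unadjusted p of the other 8 lay between 0.213 for Prmt2 and 0.985 for Pcnt. The high ratio of Ube2g2 in microglia and the low ratio of Trappc10 in astrocytes were therefore not shown to differ from those in other classes (unadjusted p = 0.843 for Ube2g2 and unadjusted p = 0.649 for Trappc10).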

How the data were processed

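The authors deposited, for each library, a raw count of UMIs per gene and barcode made with Cell Ranger 3.0.2 against a custom mm10 reference, for barcodes called as cells only. Coordinates are those of GRCm38 in the GENCODE annotation, and promoter windows are from RefSeq. The study's limits were used, so a cell needed 200 detected genes (6281 of 6464 barcodes) and a gene over 3 cells (17535 genes). Cells with over 1% of UMIs from Hba-a1 (49) were removed as red blood cells. Clusters were made with Seurat 5.3.0 (2000 variable genes, canonical correlation analysis, 50 dimensions, resolution 0.2) and named where at least 3 of the 10 leading genes were markers of 1 class, with fewer of any other, unless the 2 first genes were both markers of another class (as in the cluster led by S100a9). Scrublet in scanpy 1.11.5 called 56 doublets (0.899%), which were kept.

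UMIs were summed per library, or per library and class with at least 10 cells in each library, and compared with edgeR 4.0.16 in R 4.3.3 (TMM, filterByExpr, quasi-likelihood F test, two-sided, Benjamini-Hochberg over all genes tested, within each class for class sums). Intervals are at 95%, and the test against 1.5 moves the offset. Intervals cover the spread between mice and not the naming of cells. The script was tested on simulated data. Alternatives were DESeq2 1.42.0, other normalizations, no filter, a replicate block, libraries left out, other cells, thinning and other clusterings. The 10 genes and all lists were chosen with earlier results of these data known. The text names all 10 genes, the relatives fixed by name (1 is not reported here, and other relatives are given as counts), and the highest and lowest gene of each list; S100b, Mal, Mog, Mbp and Gm16105 were added after values were seen, as were the rules for red blood cells, for naming clusters and the minimum of 10 WT UMIs.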

Additional observations from a re-analysis of the deposited data

How the results depend on the processing

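With all cells summed, 10 of 10 genes stayed above 0 under every alternative run, with a median log2 fold change of 0.575 to 0.733 when a library was left out and 0.694 with class shares held equal. The number of intervals containing 1 was 3 with DESeq2 and 1 to 3 with a library left out. Per class, the number of pairs above 0 was 98 without the filter and 97 with DESeq2, which then cover all 110 pairs, and 58 to 68 with a library left out. The last are of 59 to 71 tested pairs, so that 1 to 5 were below 0, against 1 of 56 (92.5% above 0 without Dp(10)2Yey replicate 1, against 98.2%). Single pairs can change sign: 56 of 56 were above 0 under total-count scaling and with doublets removed, 55 of 59 at a resolution of 0.5 (4 below 0) and 51 of 54 with the segment genes left out of clustering (3 below 0). Of all 110 pairs with no filter, 59 had both Dp(10)2Yey libraries above both WT libraries, and 66 with the scaling taken over all genes with a UMI, an alternative chosen after seeing the data. Per class, 10.5% to 15.3% of all genes with a UMI separated in this way on the first scale, and 12.7% to 17% on the second. The median over tested pairs was 0.622 to 0.722 with a library left out and 0.75 after thinning cells to 2000 UMIs. The number of pairs with an adjusted p under 0.01 was 2 without the filter (Rrp1 in oligodendrocytes, Sumo3 in immature neurons), and 0 to 4 with a library left out (4 without Dp(10)2Yey replicate 1, 3 without Dp(10)2Yey replicate 2). With the replicate number as a block it was 6 (Ube2g2 and Trappc10 in microglia, Pttg1ip, Trappc10 and Rrp1 in oligodendrocytes, Rrp1 in precursors), and the all-cells median was 0.655. The share of all genes called per class under these settings is not given here, so nothing is read from these counts of pairs. The replicate numbers are not stated to mark the preparation day, and deviations of same-numbered libraries correlated at 0.003, so the block has no stated basis. Over all genes summed, DESeq2 called 2 genes, and edgeR called 12 when WT replicate 1 was left out and 1 when Dp(10)2Yey replicate 1 was. No all-cells value of the 10 genes and no median changed sign; single pairs were checked only by these counts. For single genes with all cells summed, the log2 fold change of Dip2a was 0.372 without Dp(10)2Yey replicate 1 and that of Pwp2 was 0.222 after thinning. Class medians moved by more than the spread between library pairs in 16 cases, among them those in low-UMI microglia (0.634 to 0.285 without the filter), precursors (0.608 to 1.004 after thinning) and ependymal cells (0.93 to 0.614 without the filter). The cause of these shifts was not tested, other than that fewer samples change which pairs can be tested.

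Leaving Pwp2 aside, which has no order, the class with the highest level changed only for Ube2g2 (to microglia) with the segment genes left out of clustering, for no gene at a resolution of 0.5, only for Pttg1ip (to endothelial cells) under total-count scaling, and only for Ube2g2 (to the cluster led by S100a9) with no minimum of WT UMIs. Depth limits the scarce genes most, since 54 of 110 pairs could not be tested.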
